A study of Populus tremula x Populus tremuloides with 12 samples.

Results

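The comparison described here is that of wild-type (WT) hybrid poplar leaves after 1 week outdoors in sunlight with WT leaves that stayed in the greenhouse. It rests on 6 of the 12 RNA sequencing libraries of the study, chosen by genotype and growth condition as labelled. Sunlight libraries 2, 4 and 6 were set against greenhouse libraries 1, 3 and 5, and 22959 of 33975 listed genes carried enough counts for a test.

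The plants were hybrids between Populus tremula and Populus tremuloides. All had spent 1 month in a mist chamber after tissue culture and 2 months in a greenhouse, and the sunlight plants then spent 1 further week outside. Leaves at plastochron positions 7 to 10, counted from the shoot tip, were taken in both groups. The other 6 libraries came from plants transformed with a vector for overexpression of MYB165 (OE), 3 in each condition, and serve here as a second set of plants under the same change. The labels name a single poplar clone for transformation. The sources used here do not say whether the OE plants are 1 transgenic line, or which promoter drives MYB165. The sunlight plants spent their further week at another site and may have been older when sampled. Light therefore cannot be told apart from possible age, temperature, wind or other outdoor conditions. "Sunlight" below names that whole difference.

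Outdoor sunlight is usually brighter than greenhouse light and carries ultraviolet-B radiation, which ordinary glass largely removes. Leaves sense light through photoreceptors that change transcription of many genes. Known responses of leaves to strong light are adjustment of the light-harvesting complexes, antioxidant enzymes, and the synthesis of phenolic compounds that screen ultraviolet light. MYB165 is known in poplar as a transcription factor that lowers the synthesis of flavonoids and other phenylpropanoids. These points are background, because the files list genes by identifier (ID) without pairing them with names. No pathway, and no marker of leaf tissue, was therefore looked up, and genes appear below by ID, as few as the results need.

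The greenhouse libraries of WT held from 8480528 to 17618035 gene counts, and those of sunlight from 14361506 to 23184358. Levels are given in CPM, counts relative to the scaled size of the library, a scale within which a gene can be followed across libraries but which does not correct for gene length. Over the 21303 genes averaging at least 1 CPM in WT, the 9 pairs of a sunlight and a greenhouse library correlated at r between 0.952 and 0.965 on log2 CPM. Pairs within the greenhouse gave r between 0.971 and 0.984, and pairs within sunlight between 0.961 and 0.984. The first principal component of the 6 WT libraries, with 44.5% of the variance, placed the greenhouse plants between -35.7 and -27.1 and the sunlight plants between 18.5 and 43.8. The second, with 24.6%, set sunlight plant 4 at 45.2 apart from sunlight plants 2 and 6, at -6.57 and -25.7. WT greenhouse 5 had 32.2% of its reads outside annotated genes and WT greenhouse 3 had 16.4%, against 7.05% in WT greenhouse 1 and at most 7.74% in WT sunlight. The part of this difference in the results below was not tested beyond leaving each library out.

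With limma and Benjamini-Hochberg adjustment over all tested genes, 322 genes passed adjusted p under 0.05, which is 1.4% of those tested. Of these, 146 rose in sunlight (0.636%) and 176 fell (0.767%). Under library quality weights, which give libraries far from their group less say, the count was 2205, with 1041 higher and 1164 lower. In leaf RNA, fewer cells of a type and less RNA per cell cannot be told apart, so rises and falls are changes in share of the leaf's transcripts. Scaled by library totals alone, the split was 760 higher and 110 lower, and the median log2 fold change of all tested genes went from 0.0051 to 0.23.

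**Figure D1:**
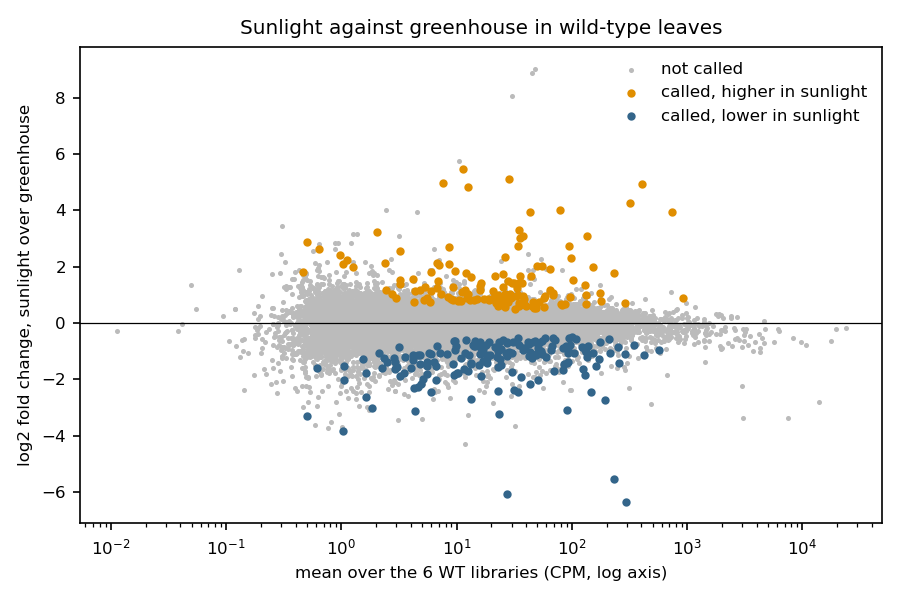
Log2 fold change of sunlight over greenhouse in WT for each tested gene (vertical axis) against its mean over the 6 WT libraries in CPM (horizontal log axis). The 146 genes called higher and the 176 called lower are coloured. None of the 98 genes averaging above 1000 CPM over the 6 libraries is among them.

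Genes of each direction, 2 apiece, are followed in full, those with the smallest p among called genes with no overlap between groups and at least 10 CPM in the higher group. This rule could choose among 119 genes that rose and 135 that fell.

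Potra001727g14056 had the smallest p among the genes that rose. Greenhouse plants 1, 3 and 5 had 30.8, 16.9 and 27.5 CPM, and sunlight plants 2, 4 and 6 had 498.4, 977 and 873 CPM. The lowest sunlight plant was thus far above the highest greenhouse plant. The group means were 25.1 ± 7.25 and 783 ± 252 CPM (SD, n = 3 each). The rise was 30.6-fold, or 4.94 ± 0.38 (SE) on the log2 scale, and limma gave an adjusted p of 0.000719. In OE leaves the same gene was low throughout, at 3.91, 8.82 and 6.50 CPM in greenhouse 1, 3 and 5 and 23.5, 10.4 and 20.5 CPM in sunlight 2, 4 and 6. The OE groups did not overlap, but every OE sunlight value was below the WT greenhouse mean. The OE change was a log2 fold change of 1.52 ± 0.39 (SE), limma adjusted p = 0.0505. The difference between the genotypes' changes was -3.42 ± 0.55 on the log2 scale and did not pass over all genes, with limma adjusted p = 0.614.

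Potra000539g03787 rose to the higher level of the pair. Its greenhouse values in WT were 65.1, 78.3 and 139 CPM in plants 1, 3 and 5, and its sunlight values were 1095, 1571 and 1442 CPM in plants 2, 4 and 6. Again the groups were far apart, with the highest greenhouse value in plant 5. This rise was 15.3-fold, or 3.94 ± 0.34 (SE) on the log2 scale, and its limma adjusted p was 0.000719. It rose in OE plants too, from 58.7, 49.4 and 32.7 CPM in the greenhouse to 694, 399.7 and 533 CPM in sunlight. Its OE log2 fold change was 3.54 ± 0.32 (SE) with limma adjusted p = 0.000949. The change in OE minus that in WT was -0.40 ± 0.46 (SE), with limma adjusted p = 0.912.

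Potra004137g24606 had the smallest p among genes that fell. It stood at 198, 158 and 209 CPM in WT greenhouse 1, 3 and 5 and at 64.9, 59.0 and 56.5 CPM in WT sunlight 2, 4 and 6. The sunlight plants lay within a narrow band, with a mean of 60.2 ± 4.30 CPM against 189 ± 26.9 CPM in the greenhouse (SD, n = 3 each). The log2 fold change was -1.63 ± 0.15 (SE), which is 3.10-fold lower, and the limma adjusted p was 0.000719. OE greenhouse plants averaged 156 ± 10.4 CPM and OE sunlight plants 99.1 ± 15.3 CPM (SD, n = 3 each), 1.57-fold lower at a limma adjusted p of 0.032. The change in OE minus that in WT was 0.98 ± 0.21 (SE), with limma adjusted p = 0.818.

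Potra002232g17151 fell from 46.4, 67.1 and 60.7 CPM in WT greenhouse 1, 3 and 5 to 10.6, 8.33 and 12.3 CPM in WT sunlight 2, 4 and 6. No sunlight plant came near the lowest greenhouse plant. The log2 fold change was -2.46 ± 0.26 (SE), which is 5.52-fold lower, and the limma adjusted p was 0.00259. OE greenhouse plants held more of it, at 100.7, 164 and 88.9 CPM, and OE sunlight plants about as much as WT ones, at 6.39, 12.6 and 9.60 CPM. In OE it was 12.1-fold lower in sunlight at a limma adjusted p of 0.00081, and the change in OE minus that in WT was -1.13 ± 0.38 (SE) on the log2 scale, with limma adjusted p = 0.818. Each of these 4 genes kept its direction and its call in all 22 alternative settings tried, with limma adjusted p up to 0.0208. They were chosen for small p in the main fit, and the settings reuse the same libraries, so this is a description.

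**Figure D2:**
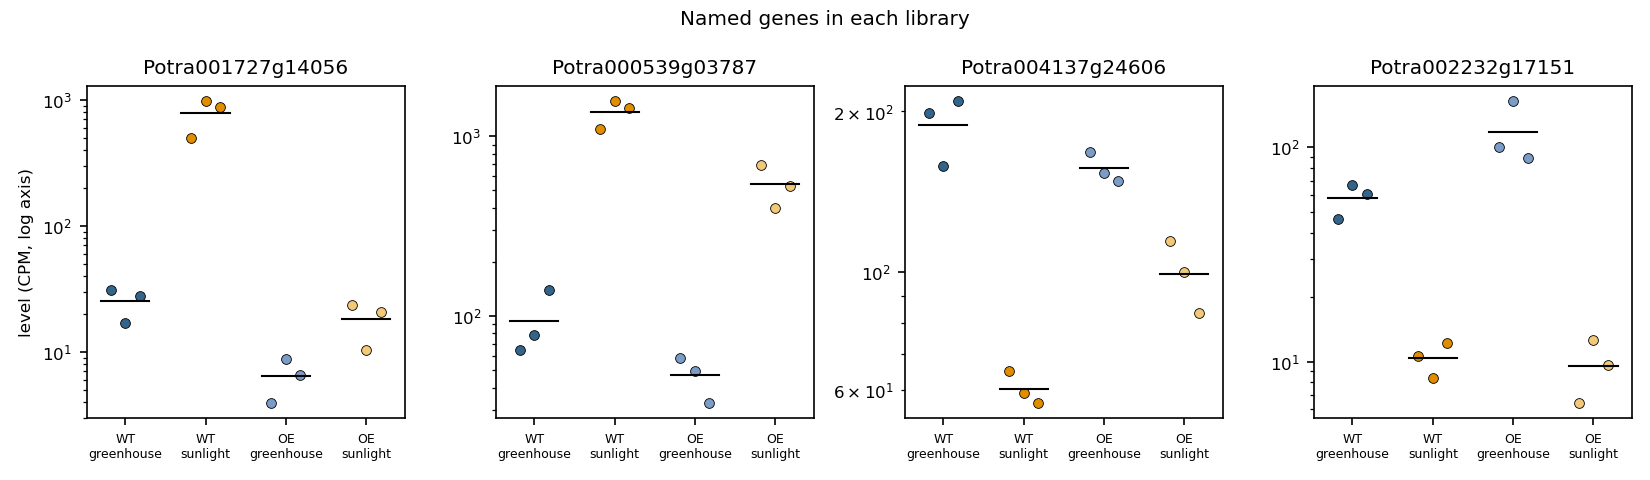
Levels in CPM (log axes, scaled per gene) of the 4 genes in each library, by group, with lines at the group means. In WT the sunlight and greenhouse points separate for all 4 genes, and Potra001727g14056 is low in all 6 OE libraries.

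The median called change was about 2-fold in each direction. The genes called higher had a median log2 fold change of 1.07, with quartiles of 0.84 and 1.80. Those called lower had a median of -1.13, with quartiles of -1.60 and -0.85. At least 4-fold rises numbered 31 and at least 4-fold falls 24, and at least 8-fold changes numbered 14 and 9. Over all tested genes the median absolute change was 0.23 on the log2 scale, and 5.17% of genes had a fitted change of at least 2-fold in either direction. All 322 called genes separated the 3 sunlight from the 3 greenhouse plants without overlap. Such separation was common among all genes, since 13.3% had every sunlight plant above every greenhouse plant and 11.7% the reverse.

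The median level of genes that fell went from 30.9 CPM in greenhouse plants to 12.2 CPM in sunlight plants. That of genes that rose went from 14.5 to 33.7 CPM. Because the sets were split by direction, the order of their levels within a condition follows partly from that choice. The share called rose with level up to 1000 CPM. It was 0.362% of the 1656 genes averaging under 1 CPM in WT, 0.93% between 1 and 10 CPM, 1.77% between 10 and 100 CPM and 2.79% between 100 and 1000 CPM. None of the 98 genes above 1000 CPM was called, against 1.4% of all tested genes. At such shares few calls would fall among 98 genes. Of the 100 genes most abundant in WT sunlight alone, 2 were called, both higher. The classes here use the mean over both conditions. The median SE of the fold change was 0.50 on the log2 scale in the lowest of these classes and 0.17 between 10 and 100 CPM.

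Among the called genes, the summed rise came from few genes. How concentrated the changes were over all tested genes was not computed. The 146 genes that rose went from 0.382% ± 0.0267 of the scaled transcript pool in the greenhouse to 1.11% ± 0.0826 in sunlight, and the 176 that fell from 1.31% ± 0.0421 to 0.556% ± 0.0246 (SD, n = 3 each). The direction of these sums follows from how the genes were chosen. Of the summed rise, 46.5% lay in the 5 genes that gained most, and the 7 that gained most made up over 50% of it. The summed fall was spread more widely, with 26.3% in the leading 5 genes, and 16 genes were needed to pass 50%.

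How many genes were called changed with the libraries left out. Without WT greenhouse 1, 3 and 5 the count was 147, 35 and 38, and without WT sunlight 2, 4 and 6 it was 57, 204 and 150. A WT group that lacks a plant has fewer replicates, which by itself tends to lower the count. A fall alone therefore does not mark a plant as unusual. OE libraries share the estimate of the spread, and the count was 1022 without OE greenhouse 3, 141 without OE sunlight 6 and 207 without OE sunlight 2. Fitted without any OE library, the 6 WT libraries gave 273 called genes, of which 172 were among the 322. With a test against a 1.5-fold limit, 11 genes passed. Of the 322 genes, 22 were called whichever WT library was left out, 8 of them higher and 14 lower, and 104 were lost each time. The 22 had median log2 fold changes of 3.08 for the rises and -1.60 for the falls. Of the 22, 21 changed at least 2-fold.

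The largest fitted rises of all were not called, with SE between 4.18 and 4.63 on the log2 scale. In these 4 genes, named after their values were seen, the fitted rise exceeded that of every called gene. They were Potra001057g09065, Potra001947g31518, Potra001247g10738 and Potra001849g14838. Potra001057g09065 had 3 counts over the 3 WT greenhouse libraries, all in plant 1. In sunlight it reached 232 CPM in WT plant 2, 40.6 CPM in plant 6 and 12.8 CPM in plant 4. Its count ratio was 878 (95% counting interval 300.3 to 4260, which covers counting error only), with limma adjusted p = 0.313. Without WT sunlight 2 the ratio was 306 (104.5 to 1487), with limma adjusted p = 0.440.

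Potra001947g31518 had 1 greenhouse count and 240.2, 25.04 and 6.35 CPM in WT sunlight 2, 6 and 4, with a count ratio of 2434 (95% counting interval 437 to 96147) and limma adjusted p = 0.372. Its ratio without that library was 547 (97.9 to 21655), with limma adjusted p = 0.469. Potra001247g10738 had no greenhouse count in WT and 172, 8.86 and 1.67 CPM in WT sunlight 2, 6 and 4. Set against the 3 counts that a count of 0 allows over the group, it was at least 530.1-fold higher, with limma adjusted p = 0.421. Without WT sunlight 2 it was at least 62.2-fold higher, with limma adjusted p = 0.407. Potra001849g14838 likewise had none and 872, 85 and 1 counts in WT sunlight 2, 6 and 4. It was at least 183-fold higher, with limma adjusted p = 0.539. Without WT sunlight 2 it was at least 22.6-fold higher, with limma adjusted p = 0.693. These bounds pool the counts of the plants and, like the intervals, cover counting error only. Its 1 count in WT sunlight 4 lay under the 3 that a count of 0 allows. Plant 4 alone therefore does not stand apart from the greenhouse for this gene. All 4 were highest in plant 2, then 6, then 4, and the highest sunlight plant exceeded the lowest between 18.2-fold and 919-fold.

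In OE the same 4 genes had at most 4 counts in any greenhouse library. They were highest in OE sunlight 2, at 85.3, 61.0, 39.8 and 9.26 CPM in the order named above. OE sunlight 4 followed and OE sunlight 6 was lowest. None was called in OE, with limma adjusted p between 0.42 and 0.762. The labels do not say whether plants with the same number in WT and OE share anything beyond the number. Genes with at least 5 CPM in 1 WT library and at least 8 times the level of every other WT library numbered 5 for WT sunlight 2, 4 for WT greenhouse 1 and 0 for each of the remaining WT libraries. By the same rule among OE libraries they numbered 21 for OE greenhouse 3, 3 for OE sunlight 2, 1 for OE greenhouse 5 and 0 for each of the remaining OE libraries. Potra001947g31518, Potra001247g10738 and Potra001849g14838 are among the 5 of WT sunlight 2. The 3 of OE sunlight 2 are Potra001057g09065, Potra001947g31518 and Potra001247g10738. For sunlight 2 these numbers therefore largely recount the 4 genes above.

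**Figure D3:**
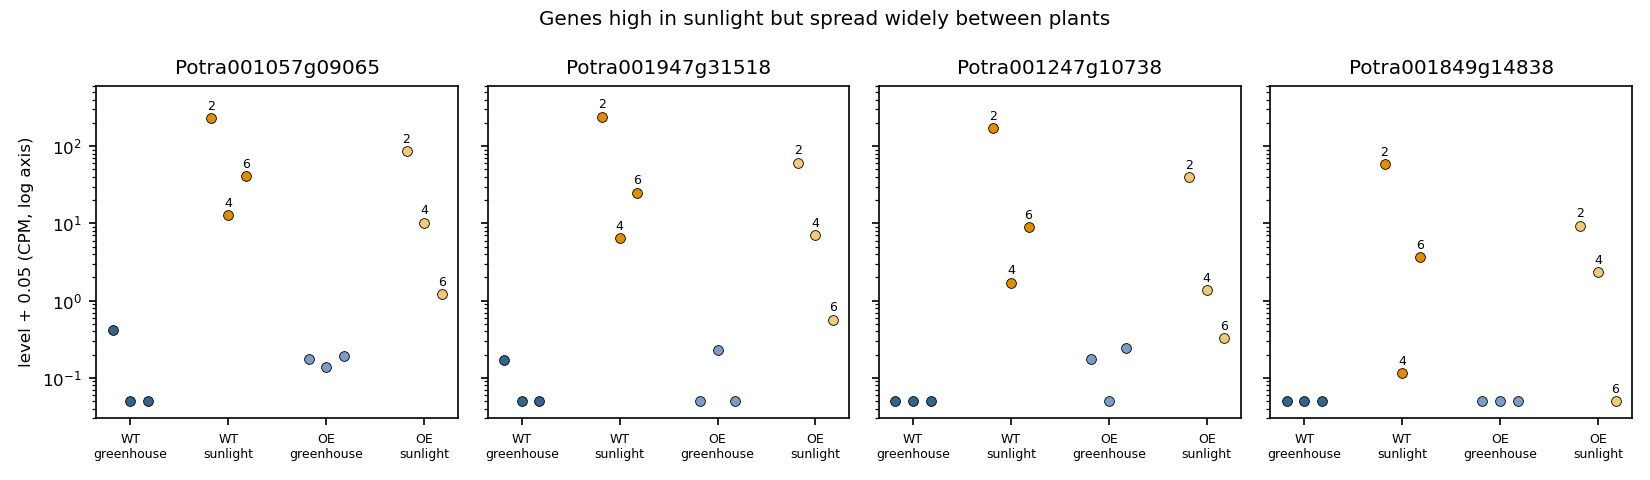
Levels of the 4 genes in each library, in CPM plus 0.05 (log axis), by group, with plant numbers beside the sunlight points. Greenhouse points lie at or near 0 in both genotypes, and sunlight plant 2 is the highest in both.

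The most abundant transcripts took a smaller share of counts in sunlight. In each library the 100 genes with most counts, a ranking that also depends on gene length, held 30.04%, 31.7% and 38.3% of all gene counts in greenhouse plants 1, 3 and 5 of WT. In sunlight plants 2, 4 and 6 they held 26.4%, 25.3% and 27.4%. All sunlight plants were below all greenhouse plants, with means of 33.3 ± 4.40% and 26.4 ± 1.05% (SD, n = 3 each). The exact 2-sided permutation p was 0.1, the smallest that 3 against 3 libraries can give. To reach 50% of gene counts took 629, 555 and 316 genes in the greenhouse and 771, 835 and 738 in sunlight.

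Part of this difference lay in 6 IDs that share the stem Potra198651, singled out after their values were seen. In greenhouse plants 1, 3 and 5 of WT they took 0.265%, 2.96% and 9.79% of all counts, in the order of the shares of reads outside genes. In WT sunlight plants they took at most 0.428%. In OE sunlight 2, with 13.1% of its reads outside genes, they took 1.77%, and in the other OE libraries at most 0.675%. With these IDs left out, the leading 100 genes held 30.1%, 29.97% and 32.1% in the WT greenhouse and 26.5%, 25.3% and 27.4% in WT sunlight. The groups still did not overlap, and the difference was -4.35 percentage points in place of -6.99. Without WT greenhouse 5 it was -4.49 percentage points.

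The same shift was visible gene by gene, in small steps. Of the 100 genes with the highest mean over the 6 WT libraries, 82 had a fitted decrease, with a median log2 fold change of -0.29, against 49.3% of all tested genes. In 46 of them every sunlight plant was below every greenhouse plant, and in 0 was the reverse true. Over all tested genes these shares were 11.7% and 13.3%. None of the 100 was called by limma, against 1.4% of all tested genes, and limma-trend called 0 as well. An unadjusted limma p under 0.05 was reached by 36 of them, and by 3777 of all 22959 tested genes. With library quality weights 25 of the 100 were called, and 2205 of all tested genes. Without OE greenhouse 3 these numbers were 13 and 1022. Scaled by library totals, 64 of the 100 had a fitted decrease, with a median of -0.081 where that of all tested genes was 0.23.

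OE leaves did not show this order. Their leading 100 genes held 27.4%, 23.7% and 27.7% of counts in greenhouse 1, 3 and 5 and 26.3%, 30.1% and 27.4% in sunlight 2, 4 and 6. These groups overlapped, with an exact 2-sided permutation p of 0.5. Of the 100 genes chosen by their WT level, 34 had a fitted decrease in OE, and their median OE log2 fold change was 0.16. Whether the shares changed differently in the 2 genotypes was not tested.

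**Figure D4:**
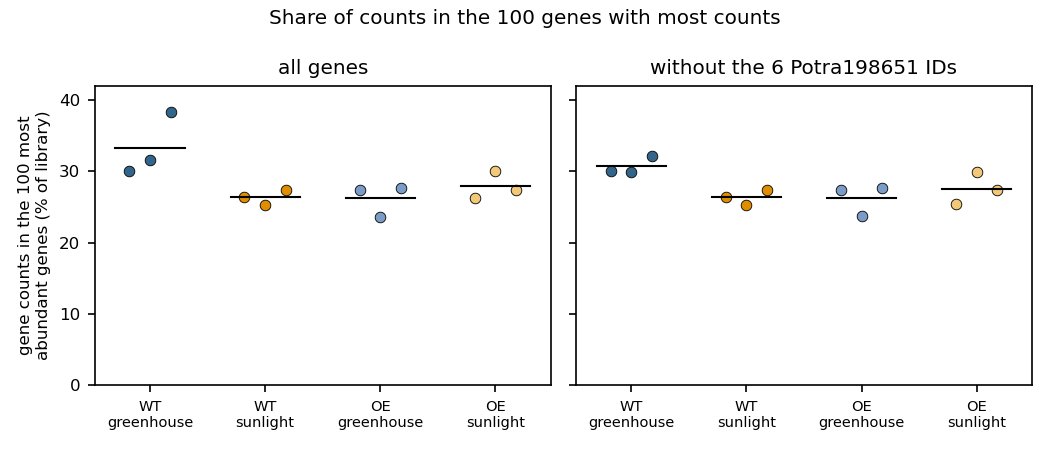
Share of gene counts held by the 100 genes with most counts in each library (vertical axis, percent), by group, for all genes and without the 6 Potra198651 IDs. Lines are group means, and in both panels the 3 WT sunlight points lie below the 3 WT greenhouse points.

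Genes called in WT mostly moved the same way in OE, whose sunlight and greenhouse libraries played no part in the WT means. Of the 146 genes that rose in WT, 143 had a positive OE change, and of the 176 that fell, 173 had a negative one. Over all tested genes 69.9% had the same sign in both genotypes. No library enters both changes, although 1 estimate of the spread per gene serves both. In 114 of the 146 and 135 of the 176, the OE sunlight and greenhouse plants were also separated without overlap in the WT direction. Over all tested genes that share was 23.7%. Because the shared spread includes the OE libraries, genes with a narrow OE spread were called more readily in WT. That choice favours separation and calls in OE, so these shares are a description.

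In OE 4.88% of tested genes were called for sunlight, 2.91% higher and 1.98% lower. Genes called in both genotypes were 58.9% of the WT rises and 12.9% of the OE rises, and 48.3% of the WT falls and 18.7% of the OE falls. The WT-called rises had a median log2 fold change of 1.07 in WT and 0.94 in OE, and the falls -1.13 in WT and -0.86 in OE. As these genes were chosen by their WT values, the smaller OE medians are a description. The OE change was at least 50% of the WT change, in the same direction, in 110 of the 146 rises and 134 of the 176 falls. Over all tested genes this held for 12983 of 22959.

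**Figure D5:**
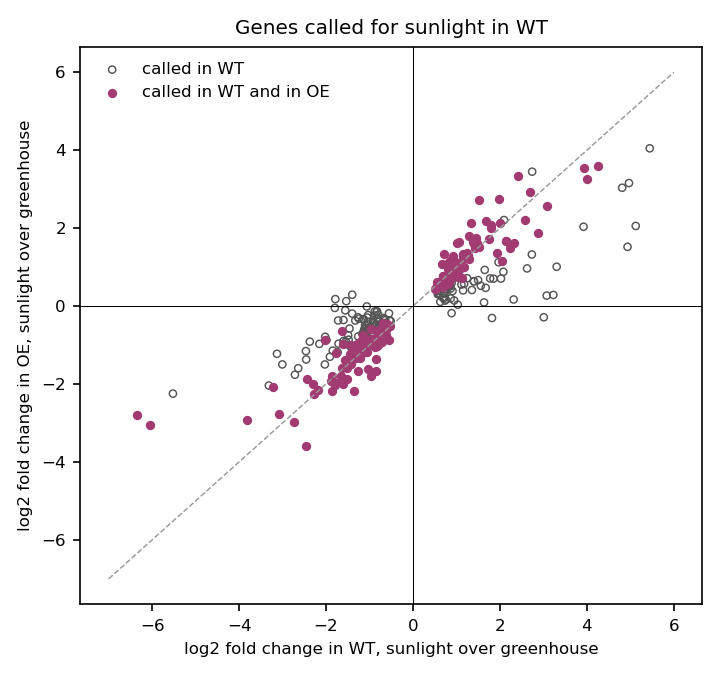
Log2 fold change for sunlight in OE (vertical) against that in WT (horizontal) for the 322 genes called in WT, filled where also called in OE. The dashed line marks equal changes, and 316 points lie in the quadrants of equal sign.

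A test of the difference itself called 0 genes with limma (0%), the smallest adjusted p being 0.557. An unadjusted p under 0.05 was reached by 1377 of all tested genes and by 74 of the 322, and limma-trend called 0. The 322 were chosen by their WT change, and the difference subtracts that same WT change. Their number is therefore a description, and cannot show whether genotype differences are more frequent among them than among all tested genes. Without WT sunlight 2 a single gene passed, Potra000959g07878, which was picked out for that reason. In WT it averaged 25.01 ± 3.48 CPM in greenhouse plants and 246 ± 135 CPM in sunlight plants, but in OE 10.2 ± 1.69 CPM in the greenhouse and 12.3 ± 2.68 CPM outdoors (SD, n = 3 each). Its difference between genotypes was -2.81 ± 0.53 (SE) on the log2 scale with all libraries, limma adjusted p = 0.787, and -3.38 ± 0.29 (SE) without WT sunlight 2, limma adjusted p = 0.00567.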

How the data were processed

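Per gene, the authors deposited raw, unnormalized read counts: every entry is a whole number and library totals differ. Among tools, the submitters' processing notes list HTSeq 0.6.1, TopHat2 2.1.1 and Cufflinks, with no roles. The sources used here give no build, annotation or strand setting, so overlapping or near-identical genes can gain or lose reads. The 5 summary entries of each file were kept out of totals and tests.

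Files named as comma-separated are tab-separated, which an automatic reading of units could not read as counts, so count-model tools were not used. A gene was tested if it had 15 or more counts in total and, in 3 or more libraries, a level of 0.69 CPM or more, which is 10 counts in a library of median size. Libraries were scaled by the trimmed mean of M values, and limma 3.58.1 in R 4.3.3 was run on all 12 libraries with voom weights, robust empirical Bayes and a mean for each of the 4 groups. Fold changes are limma estimates. The fit was tested on simulated data in which all genes shared a common spread between replicates and no library stood apart. That test does not cover the effect of outlying libraries. Permutation tests used SciPy 1.17.1. A count of 0 allows up to 3 counts, 0.364 CPM in the WT library of smallest scaled size. WT replicates differed by more than sampling noise, with a chi-square per degree of freedom from 17.6 to 55.2. The labels do not say more of the plants than their number, so p-values measure the spread between these samples.

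The genes followed in full are the 2 of each direction with the smallest unadjusted p among called, non-overlapping genes whose higher group averaged 10 CPM or more. The comparison, this rule and the alternatives were chosen with earlier results of these data known. Lists of genes by function and tissue were set out but not applied, since no names were used.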

Additional observations from a re-analysis of the deposited data

Results flagged for a closer look

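Reads set apart from the gene counts were more frequent in WT sunlight than in any WT greenhouse library for alignments to more than 1 place, at 5.72%, 5.8% and 5.6% of all reads in plants 2, 4 and 6 against at most 5.42%. Reads ambiguous between genes were above the greenhouse maximum of 6.5% in WT sunlight 2, at 6.59%. Per 100 gene counts, which leaves out reads outside genes, the alignments to more than 1 place were 7.07, 7.16 and 6.85 in WT sunlight 2, 4 and 6 and 6.68, 6.83 and 6.21 in WT greenhouse 1, 3 and 5.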

How the results depend on the processing

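Called genes in WT numbered 870 (760 higher, 110 lower) with library totals as scaling, 2205 (1041 and 1164) with library quality weights and 11 (6 and 5) against a 1.5-fold limit. The cause was not tested. Leaving out single libraries gave between 35 and 1022 calls, 11 to 456 higher and 23 to 566 lower. Genes above in all sunlight libraries were 6430 with library totals and 3053 to 4921 with single libraries left out, and those below were 984 and 2659 to 4601. Groups that lack a plant overlap less by construction. The share of called genes with the same sign in OE was 95.9% with library totals, 94.4% with quality weights, 100% against the limit, 94.8% with each genotype fitted alone and 93.9% to 100% with libraries left out. Calls for the difference between genotypes were 0 or 1 with libraries left out. Median-of-ratios scaling, both filters, limma-trend and the non-robust fit left these results within 1.5 times of their values. The alternatives for non-overlap, abundant genes and shares of counts were chosen after seeing the data. No paired analysis was possible because WT greenhouse and WT sunlight share no replicate number. The count ratios without WT sunlight 2 were also chosen after seeing the data.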
